A study of Homo sapiens with 6 samples.

Results

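The genes described here are 10 that encode the contractile apparatus of smooth muscle and of myofibroblasts: ACTA2, ACTG2, TAGLN, MYL9, CNN1, TPM1, TPM2, CALD1, MYH11 and LMOD1. They were chosen by symbol, and all 10 had a row among the 25368 gene symbols of each of the 2 expression tables. The data were RNA-seq libraries of MRC5, a line of human embryonic lung fibroblasts that had been immortalized with hTERT, and there was 1 library for each of 6 conditions. In the JUN overexpression table the cells carried an adenovirus with an empty vector (control), with FLAG-tagged JUN WT, or with JUN AA, a mutant whose JNK-phosphorylated serines were changed to alanine. Infection lasted 2 h and culture went on for 3 days. Among the JNKi libraries the cells were untreated MRC5, induced CAFs (iCAFs, MRC5 kept for 7 days in medium conditioned by MDA-MB-231 breast cancer cells), and iCAFs treated with 1 µM JNK-IN-8 (JNKi), an inhibitor of JNK, for 48 h. MRC5 cells were otherwise grown with serum and the conditioned medium was collected without it, so factors from the cancer cells and the change of medium cannot be told apart. The protocol gives iCAFs vehicle (DMSO) or JNKi, but the label of the iCAFs library itself does not name the vehicle. The 6 libraries are of 1 immortalized line, and with 1 library per condition no difference could be tested and p-values are left out.

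Contraction in smooth muscle runs on filaments of smooth muscle actin that slide against myosin. Calcium-activated myosin light chain kinase switches the motor on by phosphorylating its regulatory light chain, and tropomyosin, caldesmon and calponin sit along the actin filament and tune its access to myosin. Fibroblasts that take on part of this apparatus, above all α-smooth muscle actin from ACTA2, are called myofibroblasts, and α-smooth muscle actin is widely used to mark CAFs (cancer-associated fibroblasts). Many of these genes are known targets of SRF, a transcription factor that binds the CArG box with its coactivators myocardin and the MRTF proteins, and TEAD factors bind a short MCAT element found near some of them.

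Values are FPKM, in which the fragments of a gene are divided by the length of its exons and by all mapped fragments of the library, which allow levels to be compared between genes per unit of length. Differences are of log2(FPKM + 1) within a table, a scale that understates differences of genes with low values, and a difference of 1 or more is called 2-fold. The tables were processed as separate sets, so levels are never compared between them. FPKM summed to between 494603 and 613184 in the JUN overexpression table, highest in JUN AA, and to between 359944 and 399532 in the JNKi table, lowest with JNKi. JUN was at 25.5 FPKM in the control, with 4543 FPKM for JUN WT and 291 FPKM for JUN AA, which goes with the labels, although the introduced and the endogenous gene are not separated. JUN was at 57.1 FPKM in untreated MRC5, 55.3 FPKM in iCAFs and 21.1 FPKM after JNKi. All 9 fibroblast markers looked for, among them VIM and COL1A1, were above 1 FPKM in every library. The markers CDH1, EPCAM (epithelial), PECAM1, CDH5 (endothelial), PTPRC and CD3E (leukocyte) were below 1 FPKM in every library. Of the same lists KRT8, KRT18 and CD68 were above 1 FPKM in every library. TEK was above it in the JNKi libraries and KRT19 in untreated MRC5.

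The 10 genes spanned the whole range of expression in these fibroblasts. TAGLN, TPM2 and MYL9 were among the most abundant transcripts of every library, and MYH11, the heavy chain of smooth muscle myosin, was near 0 in all of them. Together the 10 genes made up 2.23% of the FPKM sum in the control, 1.62% with JUN WT and 1.53% with JUN AA. They made up 1.04% in untreated MRC5, 0.960% in iCAFs and 1.39% after JNKi. TAGLN held rank 8 among all genes in the control and rank 13 in iCAFs+JNKi. ACTA2 held rank 89 in the control and rank 346 in JUN AA, and it held rank 1299 in iCAFs and rank 127 in iCAFs+JNKi. MYH11 had a mean under 1 FPKM in both tables, so directions are counted over the other 9 genes. In the JUN overexpression table the control had the highest value for 7 of the 9. In the JNKi experiment iCAFs+JNKi had the highest value for 7 and iCAFs the lowest for 7. The share of all genes with these orders was not computed, and shares for single comparisons are given below.

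**Figure D1:**
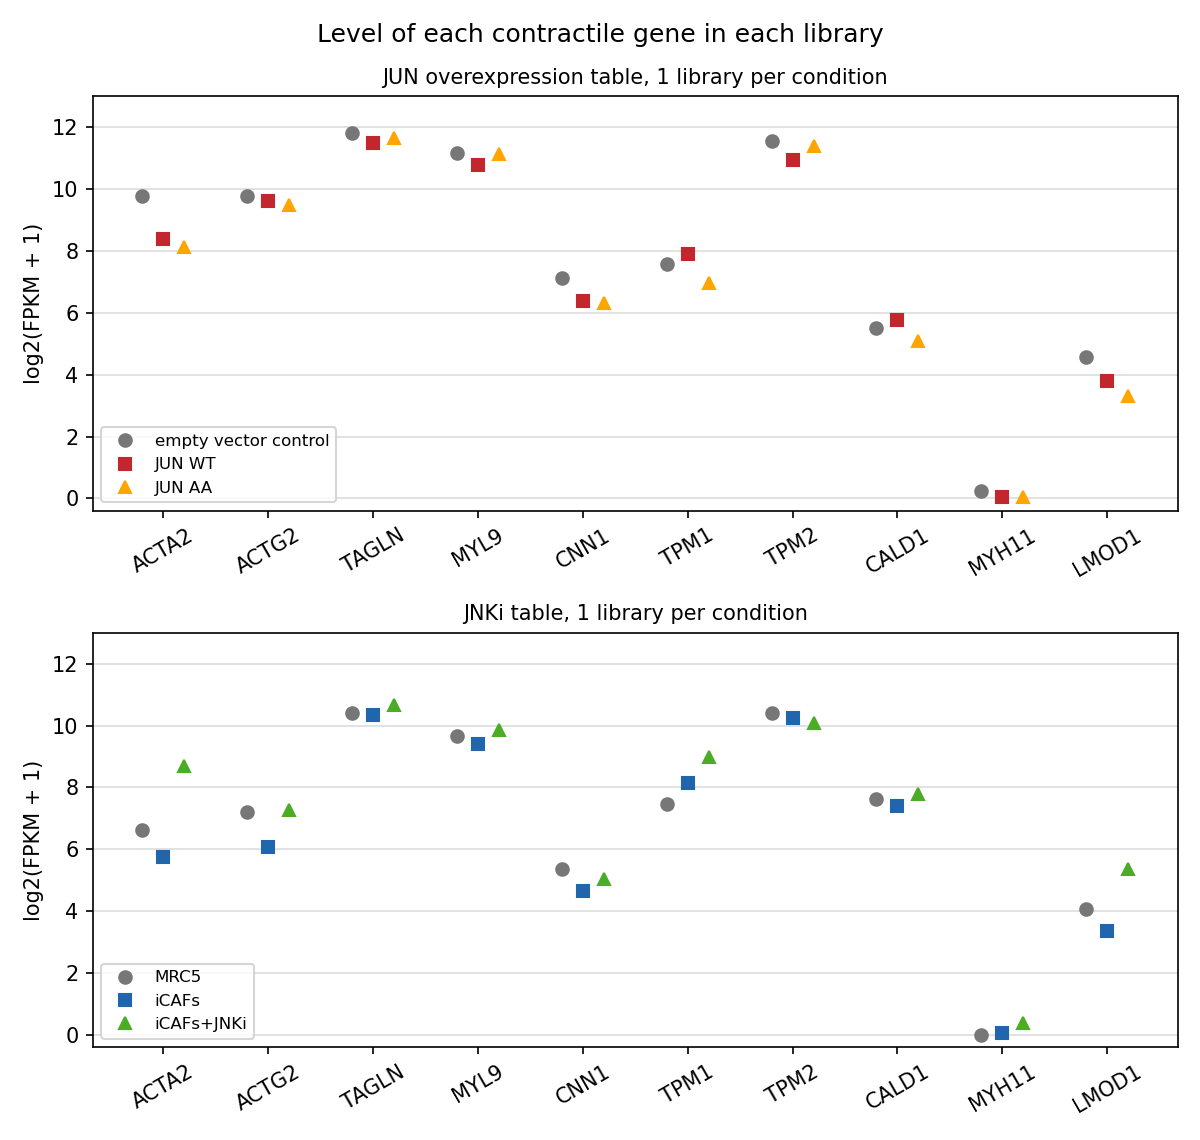
Level of each of the 10 genes as log2(FPKM + 1), with 1 point for each library, in the JUN overexpression table (top) and the JNKi table (bottom); there are no error bars because each condition has 1 library. ACTA2 separates from the control in both JUN libraries and from MRC5 and iCAFs with JNKi, while TAGLN, MYL9 and TPM2 stay high throughout and MYH11 near 0.

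With JUN overexpression most of the contractile genes were lower than in the control. In JUN WT 7 of the 9 were lower and 2 (TPM1 and CALD1) were higher, beside 39.1% of all genes past the 1 FPKM filter that were lower. The median log2 difference of all 10 was -0.36, against a median of 0.15 over the 10311 genes whose mean reached 1 FPKM. Only ACTA2 was 2-fold lower, 1 gene of 10, and none was 2-fold higher. Over all genes past that filter 3.39% were 2-fold lower and 6.92% were 2-fold higher. In JUN AA, all 9 were lower, with a median of -0.35 over the 10 against -0.02 over all genes, although TAGLN and MYL9 came out above 0, at 0.07 and 0.22, once trends with transcript length and GC content were removed. The share of all genes past the filter that were lower in JUN AA was 51.4%. ACTA2 and LMOD1, 2 of the 10, were 2-fold lower in JUN AA and none was 2-fold higher, beside 3.77% and 5.29% of all genes. These comparisons share the control library, so the values of JUN WT and JUN AA are given side by side and do not support each other. Giving all libraries an equal FPKM sum moved the median over all genes in JUN AA from -0.02 to -0.29, and the median of the contractile genes to -0.66.

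Between JUN WT and JUN AA the contractile genes showed no common direction. In JUN WT 6 of the 9 were higher than in JUN AA and 3 (TAGLN, MYL9 and TPM2) were lower, with a median log2 difference over the 10 of 0.09 against 0.18 over all genes, and the median turned to -0.09 when differences were centred on the median gene. Higher values in JUN WT were also found for 62.5% of all genes past the filter. None of the 10 was 2-fold different in either direction, beside 6.65% of all genes that were 2-fold higher in JUN WT and 5.61% that were 2-fold lower. The largest difference was that of TPM1, at 0.94, which reached 1.24 with rescaled FPKM.

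In iCAFs most of the contractile genes lay somewhat below MRC5. Of the 9 genes 8 were lower and 1 (TPM1) was higher, with a median log2 difference over the 10 of -0.24 against -0.06 over the 11780 genes past the filter, and TAGLN was within 0.01 of the median gene. Most genes past the filter, 59.4%, were also lower in iCAFs. ACTG2 was 2-fold lower, 1 gene of 10, and none was 2-fold higher, beside 1.71% and 1.94% of all genes.

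With JNKi the contractile genes were higher than in iCAFs, in very unequal measure. Of the 9 genes 8 were higher and 1 (TPM2) was lower, with a median log2 difference over the 10 of 0.43 against -0.10 over all genes. The share of all genes past the filter that were higher was 37.4% against iCAFs and 33.6% against MRC5. TPM2 was at 0.09 against iCAFs rather than -0.14 once length and GC trends were removed. ACTA2, LMOD1 and ACTG2, 3 of the 10, were 2-fold higher and none was 2-fold lower, beside 2.25% and 1.97% of all genes. Against untreated MRC5, 7 were higher and 2 (CNN1 and TPM2) lower with JNKi, with a median over the 10 of 0.24 against -0.16 over all genes. ACTA2, TPM1 and LMOD1 were then 2-fold higher and none was 2-fold lower, beside 3.28% and 3.53% of all genes. The comparisons with JNKi share the iCAFs+JNKi library. Rescaled FPKM moved the median over all genes from -0.10 to 0.01 against iCAFs and from -0.16 to -0.04 against MRC5.

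**Figure D2:**
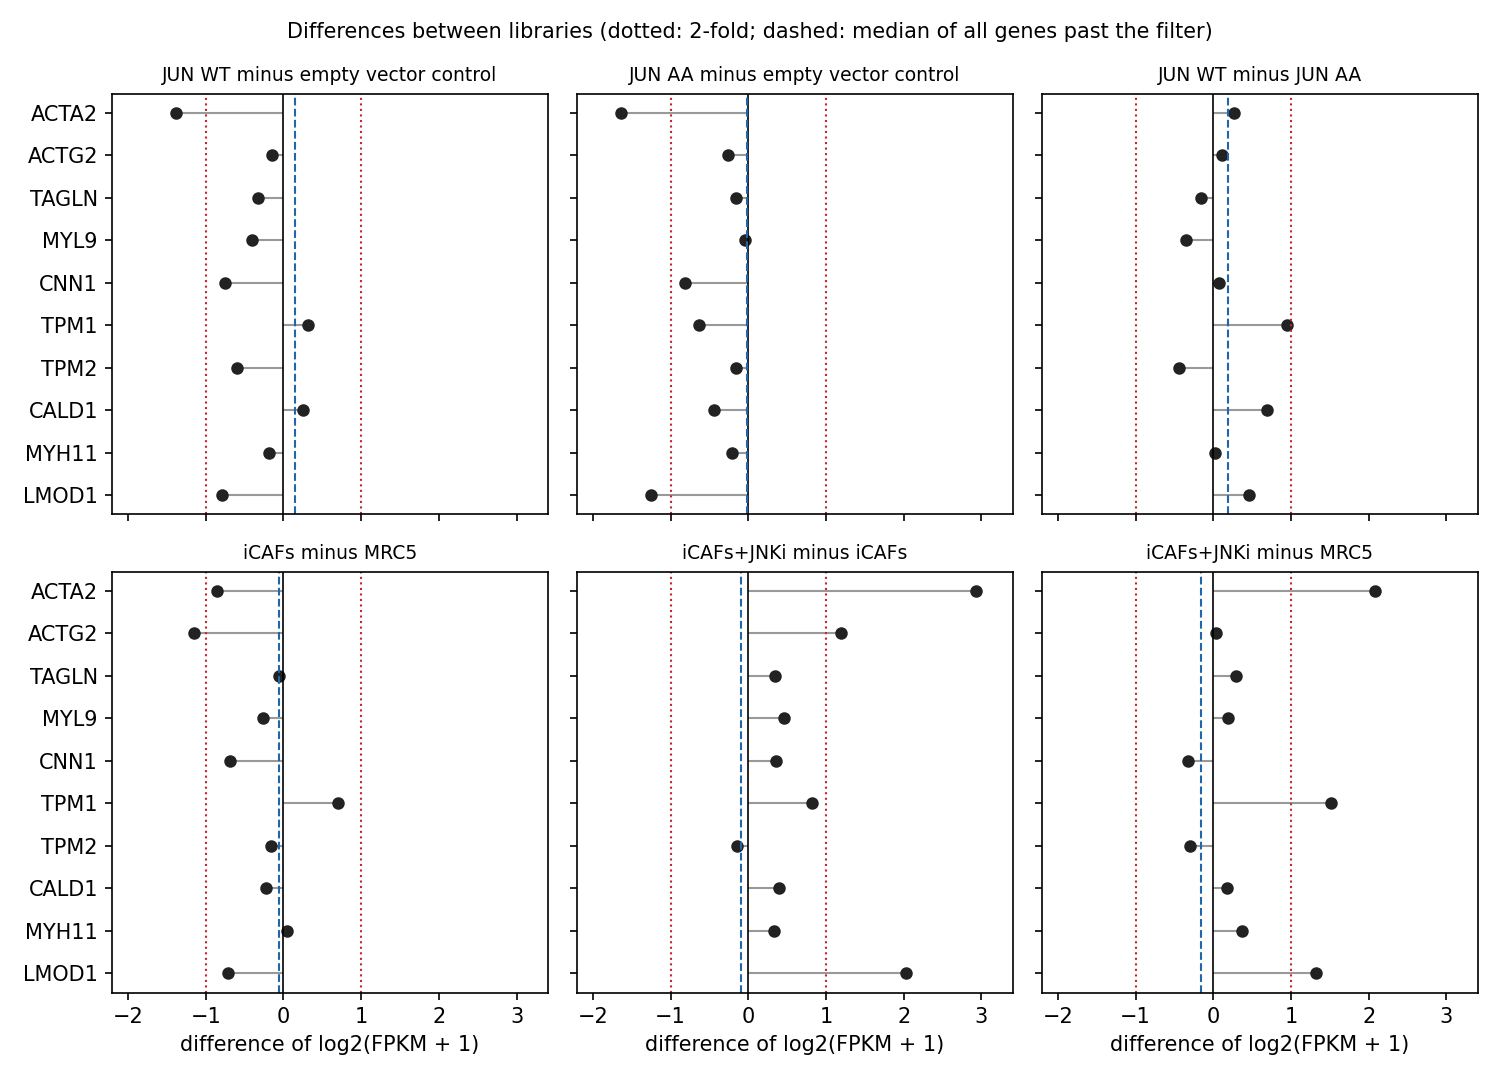
Difference of log2(FPKM + 1) for each of the 10 genes in the 6 comparisons, with 1 library on each side; dotted lines mark a 2-fold difference and dashed lines the median of all genes whose mean reached 1 FPKM. ACTA2 lies furthest to the left for JUN WT (-1.38) and JUN AA (-1.64) and furthest to the right for iCAFs+JNKi against iCAFs (2.94).

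The smooth muscle actins are first. ACTA2, on chromosome 10 of GRCh37 from 90694831 to 90751096 on the minus strand, encodes α-smooth muscle actin. It was at 874 FPKM in the control, with 336 FPKM for JUN WT and 280 FPKM for JUN AA, log2 differences of -1.38 and -1.64. The control stood alone at 2.60 times JUN WT and 3.13 times JUN AA, and JUN WT and JUN AA were close to each other. In the JNKi table ACTA2 was at 96.6 FPKM in untreated MRC5, 52.8 FPKM in iCAFs and 411 FPKM after JNKi. The JNKi library was at 7.78 times iCAFs and 4.25 times MRC5, so it lay above both the untreated and the induced cells.

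ACTG2, on chromosome 2 from 74119441 to 74146992 on the plus strand, encodes γ-smooth muscle actin, the actin typical of visceral smooth muscle. It was at 871 FPKM in the control, with 786 FPKM for JUN WT and 724 FPKM for JUN AA, log2 differences of -0.15 and -0.27. Among the JNKi libraries it was at 147 FPKM in untreated MRC5, 65.8 FPKM in iCAFs and 152 FPKM after JNKi. ACTG2 with JNKi was thus 2.30 times iCAFs and 1.03 times MRC5, at the level of the untreated cells, where ACTA2 was above it.

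The ratio of ACTA2 to ACTG2 within a library does not depend on how the library was scaled. The 2 actins were at a ratio of 1.00 in the control, 0.43 with JUN WT and 0.39 with JUN AA. The ratio was 0.66 in untreated MRC5, 0.80 in iCAFs and 2.71 after JNKi. So the actins were level in the control, and ACTA2 was clearly the larger of the pair only with JNKi. The ratio of ACTA2 to ACTB, the main actin of non-muscle cells, was 0.033 in untreated MRC5, 0.018 in iCAFs and 0.17 after JNKi.

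The coding sequences of ACTA2 and ACTG2 are 84.9% identical over 1128 aligned bases of their canonical transcripts, and only a read that lay wholly within an identical stretch could not be assigned by its sequence. The longest stretch without a difference has 29 bases, at positions 1054 to 1082 of the ACTA2 coding sequence and 1051 to 1079 of that of ACTG2. It is shown because it sets the scale of what the genes share.
ACTA2 and ACTG2 shared coding run: tccaccttccagcagatgtggatcagcaa
The longest stretch shared by ACTA2 and ACTB has 32 bases. How reads from such stretches were divided is not stated, and their part in the values was not tested.

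ACTA2 also shares exon bases with other genes on the annotation used. FAS, a death receptor gene on the opposite strand, shares 380 bases, 6.75% of the exon bases of ACTA2. FAS was at 8.79 FPKM in the control, with 15.0 FPKM for JUN WT and 9.27 FPKM for JUN AA. It was at 14.6 FPKM in untreated MRC5, 16.0 FPKM in iCAFs and 19.5 FPKM after JNKi. The antisense gene ACTA2-AS1 shares 1638 exon bases with ACTA2, 29.1% of them, and an unnamed lncRNA gene on the same strand shares 401. Neither was analysed here. The part of reads from overlapping genes in the values of ACTA2 and of the genes below was not tested.

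LMOD1 encodes leiomodin 1, which nucleates actin filaments in smooth muscle, and lies on chromosome 1 from 201865584 to 201915676 on the minus strand. It was at 23.0 FPKM in the control, with 12.8 FPKM for JUN WT and 9.03 FPKM for JUN AA, log2 differences of -0.80 and -1.26. In the JNKi experiment it was at 15.6 FPKM in untreated MRC5, 9.11 FPKM in iCAFs and 40.3 FPKM after JNKi. The JNKi library was at 4.43 times iCAFs and 2.58 times MRC5. LMOD1 and ACTG2 had the same order of libraries as ACTA2 in both tables. LMOD1 shares 536 exon bases with an antisense lncRNA gene that was not analysed here.

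The sequences upstream of the 3 genes that were 2-fold higher with JNKi are shown because CArG boxes and MCAT elements there are where SRF and TEAD factors would bind. Each line has the 250 bases before a RefSeq start on GRCh38.p14, 5′ to 3′ on the strand of the gene, and capitals mark CArG boxes. The strict box is CC, then 6 bases that are each A or T, then GG, and the looser form keeps CC and GG and lets 1 of the 6 inner bases be another. Boxes with a change in CC or GG were not searched for. For ACTA2 the second of 2 starts is shown because it holds matches, and the first start held none of the motifs searched.
ACTA2 chr10:88952774-88953023 minus strand: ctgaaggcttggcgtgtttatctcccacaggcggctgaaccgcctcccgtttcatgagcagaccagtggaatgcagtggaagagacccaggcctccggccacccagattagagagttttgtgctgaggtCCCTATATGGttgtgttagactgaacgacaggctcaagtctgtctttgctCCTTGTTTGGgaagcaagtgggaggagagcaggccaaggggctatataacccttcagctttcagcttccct
ACTG2 chr2:73892758-73893007 plus strand: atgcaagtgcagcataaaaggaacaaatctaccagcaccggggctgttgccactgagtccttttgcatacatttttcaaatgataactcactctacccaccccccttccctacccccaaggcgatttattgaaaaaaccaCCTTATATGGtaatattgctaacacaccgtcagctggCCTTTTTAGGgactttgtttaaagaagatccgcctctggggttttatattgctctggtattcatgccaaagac
LMOD1 chr1:201946549-201946798 minus strand: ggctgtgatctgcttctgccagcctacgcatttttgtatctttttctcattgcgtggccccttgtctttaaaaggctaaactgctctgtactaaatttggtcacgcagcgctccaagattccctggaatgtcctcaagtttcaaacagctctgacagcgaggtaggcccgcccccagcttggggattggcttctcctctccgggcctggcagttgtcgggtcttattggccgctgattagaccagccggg
ACTG2 holds a pair of strict CArG boxes, from 110 to 101 and from 73 to 64 bases before the start. The marked boxes of ACTA2, from 121 to 112 and from 71 to 62 bases before the start, are of the looser form, and LMOD1 has no box of either form in this window.

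The search covered both strands of 300 bases, 250 before and 50 after the start, in 35116 RefSeq promoters. Of the 10 genes, 7 have an entry, with 12 promoters, and TAGLN, MYL9 and MYH11 have none. The strict CArG box was found in 1.29% of all promoters and in 1 of the 12, that of ACTG2. The looser form, which was added after the strict one and includes it, was found in 8.13% of all promoters. It was in 3 of the 12, for ACTA2, ACTG2 and CALD1. The MCAT core CATTCC was found in 14.0% of all promoters and in 4 of the 12, for ACTA2, CALD1 and LMOD1. In ACTA2 it lies on the opposite strand from 183 to 178 bases before the start, and in LMOD1 from 126 to 121 bases. The AP-1 heptamer TGACTCA, the element that JUN dimers bind, was found in 4.95% of all promoters and for 0 of the 7 genes, which says only that these letters are not in this window. These matches describe the sequence and not occupied sites.

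Among the genes for proteins that bind the actin filament, TAGLN encodes transgelin (SM22α) and lies on chromosome 11 from 117070086 to 117078180 on the plus strand. It was at 3573 FPKM in the control, with 2858 FPKM for JUN WT and 3196 FPKM for JUN AA, and at 1341 FPKM in untreated MRC5, 1292 FPKM in iCAFs and 1635 FPKM after JNKi. Its log2 differences ran from -0.32 in JUN WT to 0.34 in iCAFs+JNKi against iCAFs, so no library of a table stood far from the others. An unnamed gene model on the same strand, which was not analysed here, shares 2498 exon bases with TAGLN, 38.1% of its exon bases. PCSK7, on the opposite strand, shares 2233 of them, 34.1%. PCSK7 was between 41.8 and 68.2 FPKM in the 6 libraries, far below TAGLN, and among the JUN libraries it was highest in the control.

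CNN1 encodes calponin 1, an inhibitor of actomyosin ATPase, on chromosome 19 from 11649582 to 11661138 on the plus strand. It was at 140 FPKM in the control, with 83.0 FPKM for JUN WT and 79.0 FPKM for JUN AA, log2 differences of -0.75 and -0.82, and the latter was -1.13 with rescaled FPKM. In the JNKi table CNN1 was at 40.0 FPKM in untreated MRC5, 24.3 FPKM in iCAFs and 31.5 FPKM after JNKi. The JNKi library thus lay between iCAFs and MRC5, and CNN1 and TPM2 were the 2 genes of the 10 that were highest in untreated MRC5.

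CALD1 encodes caldesmon, in a long smooth muscle form and shorter forms of non-muscle cells that per-gene FPKM do not separate. It lies on chromosome 7 from 134429003 to 134655480 on the plus strand. CALD1 was at 44.9 FPKM in the control, with 53.6 FPKM for JUN WT and 32.9 FPKM for JUN AA. The log2 difference of 0.25 in JUN WT turned to -0.17 once length and GC trends were removed, and CALD1 has the lowest GC content of the 10 canonical transcripts, 41.3%. Among the JNKi libraries it was at 194 FPKM in untreated MRC5, 167 FPKM in iCAFs and 219 FPKM after JNKi, a narrow range.

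The tropomyosins, which wind along the actin filament, did not move together. TPM1, on chromosome 15 from 63334819 to 63364114 on the plus strand, was at 193 FPKM in the control, with 240 FPKM for JUN WT and 124 FPKM for JUN AA. It was at 174 FPKM in untreated MRC5, 283 FPKM in iCAFs and 501 FPKM after JNKi. TPM1 was higher in iCAFs than in MRC5 (log2 difference 0.70) and higher again with JNKi (0.82, and 1.06 with length and GC trends removed), the opposite of ACTA2 for the first step and the same for the next. TPM2, on chromosome 9 from 35681989 to 35690053 on the minus strand, was at 2989 FPKM in the control, with 1975 FPKM for JUN WT and 2675 FPKM for JUN AA. It was at 1343 FPKM in untreated MRC5, 1206 FPKM in iCAFs and 1092 FPKM after JNKi, log2 differences of -0.15 and -0.14 for the successive steps. The ratio of TPM2 to TPM1 was 7.72 in untreated MRC5, 4.26 in iCAFs and 2.18 after JNKi. It was 15.5 in the control, 8.24 with JUN WT and 21.6 with JUN AA, so JUN WT and JUN AA lay on either side of the control. Both genes make muscle and non-muscle isoforms, which per-gene FPKM do not separate, and their coding sequences are 79.0% identical. The antisense gene TPM1-AS shares 2645 exon bases with TPM1 and was not analysed here.

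The myosin genes were at the ends of the range. MYL9, the regulatory light chain of smooth muscle myosin, on chromosome 20 from 35169900 to 35179850 on the plus strand, was at 2310 FPKM in the control, with 1752 FPKM for JUN WT and 2245 FPKM for JUN AA. It was at 815 FPKM in untreated MRC5, 679 FPKM in iCAFs and 934 FPKM after JNKi. MYL9 differed by 0.46 or less on the log2 scale between any pair of libraries of a table. MYH11, on chromosome 16 from 15796992 to 15950885 on the minus strand, was at 0.18 FPKM in the control, with 0.038 FPKM for JUN WT and 0.022 FPKM for JUN AA. It was listed at 0 in MRC5 and was at 0.034 FPKM in iCAFs and 0.30 FPKM after JNKi. MYH11 was the only gene of the 10 with a mean under 1 FPKM, in both tables, and no fold is read from such values. It shares 1063 exon bases with NDE1 on the opposite strand, which was between 1.73 and 3.99 FPKM, above MYH11 in every library. The heavy chain MYH9 of non-muscle cells was at 338 FPKM in untreated MRC5, 322 FPKM in iCAFs and 382 FPKM after JNKi.

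Several of these genes have a relative that non-muscle cells use. Of 7 pairs, chosen after the values were seen, the muscle gene had the lower log2 difference in 7 for JUN WT against the control and in 6 for JUN AA against the control. In JUN WT against JUN AA it was lower in 4 and higher in 3. In iCAFs against MRC5 it had the lower difference in 6, although TAGLN and TAGLN2 were both at -0.05. With JNKi against iCAFs it had the higher difference in 6. The counts depend on the partner chosen, since CNN1 in iCAFs, at -0.69, was below CNN2 (-0.31) and above CNN3 (-0.86), another calponin of non-muscle cells. MYL12A, a regulatory light chain of non-muscle myosin, was at 150 FPKM in the control, with 379 FPKM for JUN WT and 230 FPKM for JUN AA. MYL9 was at 15.4 times MYL12A in the control, 4.62 times with JUN WT and 9.78 times with JUN AA. TAGLN was at 5.20 times TAGLN2 in MRC5, 5.20 times in iCAFs and 10.9 times in iCAFs+JNKi, and TAGLN2 itself had a log2 difference of -0.73 with JNKi against iCAFs. The exception with JNKi was CNN1, which was at 0.25 times CNN2 in iCAFs and 0.23 times in iCAFs+JNKi.

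**Figure D3:**
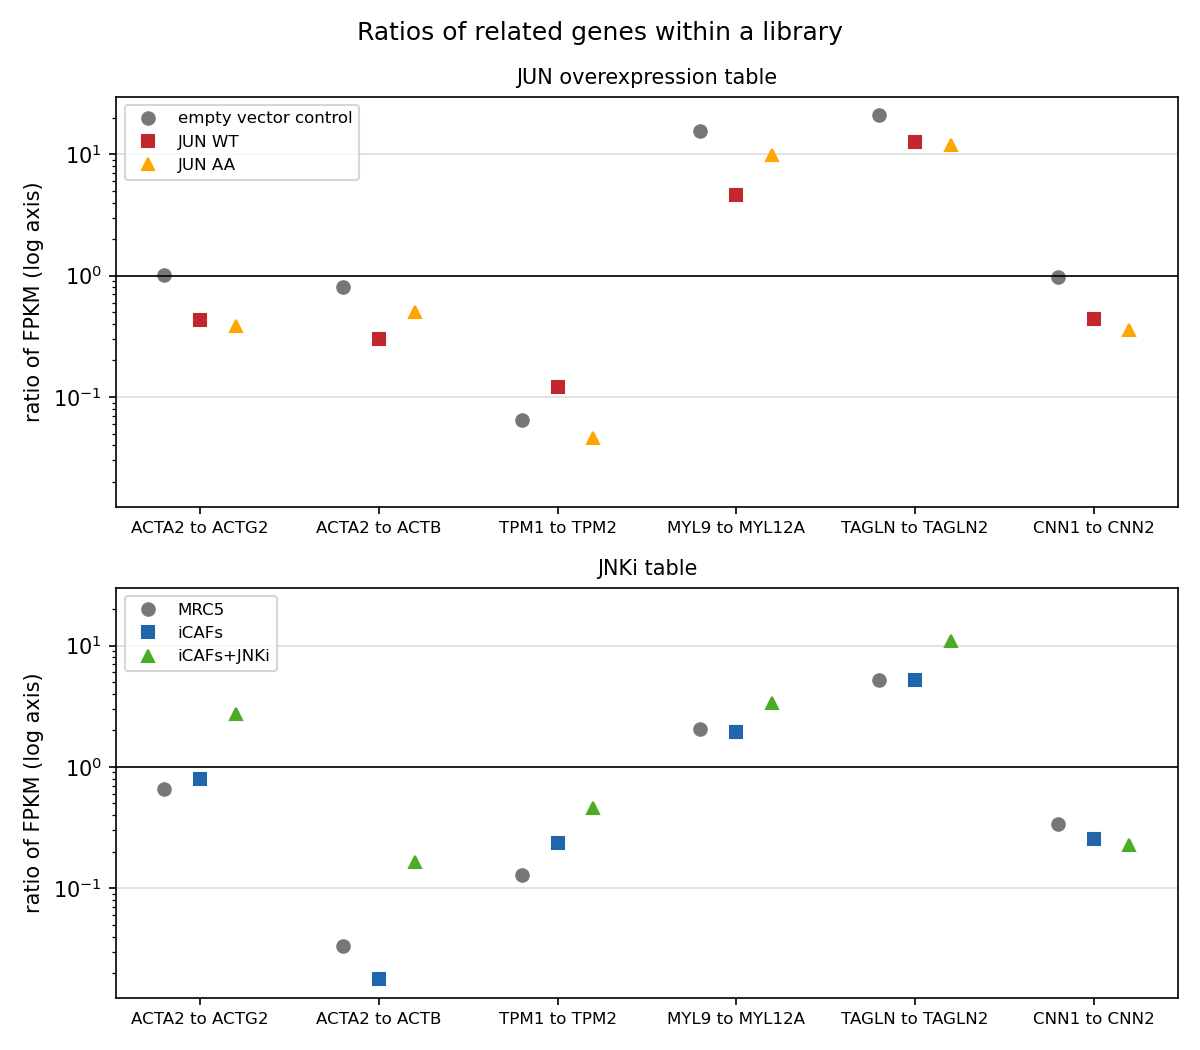
Ratio of the FPKM of related genes within each library on a log axis, for the JUN overexpression table (top) and the JNKi table (bottom), with 1 point per library and a line at a ratio of 1. The ratio of ACTA2 to ACTG2 goes from 1.00 in the control to 0.43 and 0.39 in the JUN libraries and from 0.80 in iCAFs to 2.71 with JNKi.

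The wider list of relatives held 16 genes, of which 13 passed the filter among the JUN libraries and 14 in the JNKi table. Its median log2 difference was 0.42 in JUN WT, -0.01 in JUN AA, -0.07 in iCAFs against MRC5 and -0.16 with JNKi against iCAFs. With JNKi against iCAFs 0 genes were 2-fold higher and 0 were 2-fold lower, beside 2.25% and 1.97% of all genes. ACTB, the highest of them in the JNKi table, was at 2894 FPKM in untreated MRC5, 2970 FPKM in iCAFs and 2489 FPKM after JNKi. MYL12A and TMOD1, a capping protein of actin filaments, were 2-fold higher in JUN WT, at log2 differences of 1.33 and 1.48, beside 6.92% of all genes. TMOD1 was also 2-fold higher in JUN AA (1.99), where MYH9 was 2-fold lower (-1.15). The 16 genes of striated muscle, such as ACTA1, ACTC1 and MYH7, were all below 1 FPKM in every library, with 12 of them listed at 0 in the control and 14 in iCAFs.

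Other genes of contraction and of its anchorage to the membrane and adhesions were taken from a list of 31, of which 27 passed the filter in each table. In JUN WT 3 were 2-fold higher and 2 were 2-fold lower, beside 6.92% and 3.39% of all genes. The median log2 difference was -0.01. The higher ones were SYNPO2 (synaptopodin 2, from 0.28 to 2.48 FPKM), CAV1 (caveolin 1, from 57.7 to 133 FPKM) and LIMA1 (from 9.79 to 20.6 FPKM). The lower ones were PPP1R14A, an inhibitor of myosin phosphatase, and SYNM, an intermediate filament protein. In JUN AA the median was -0.19 and HSPB6, a small heat shock protein of smooth muscle, was 2-fold higher, from 334 to 980 FPKM. Over all genes 5.29% were 2-fold higher in JUN AA. In JUN WT against JUN AA, 5 were 2-fold higher, among them VCL (vinculin, 1.18) and ACTN1 (α-actinin 1, 1.03), and 4 were 2-fold lower, among them MYL6, the essential light chain of myosin, at 3114 and 6302 FPKM. The shares over all genes were 6.65% and 5.61%.

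In iCAFs against MRC5 the median of this list was -0.02 and CAV1 was 2-fold lower, from 295 to 85.0 FPKM, beside 1.71% of all genes. With JNKi against iCAFs the median was 0.16, with 17 genes higher, 10 lower and 1 (SYNM, from 1.51 to 4.52 FPKM) 2-fold higher. Over all genes 37.4% were higher and 2.25% were 2-fold higher. MYLK, the kinase that phosphorylates the regulatory light chain, lay at the threshold with JNKi, at 137 FPKM in untreated MRC5, 102 FPKM in iCAFs and 206 FPKM after JNKi. FLNA (filamin A) was at 393, 350 and 485 FPKM in that order. SMTN, smoothelin, went the other way and was at 63.5, 60.5 and 31.9 FPKM. DES (desmin) and KCNMB1, markers of differentiated smooth muscle, were below 1 FPKM in every library. DES and KCNMB1 were picked after their values were seen. MYLK, SMTN and HSPB6, of the same list, were far above 1 FPKM in every library. Beside DES and KCNMB1, the genes of this list under the filter in the JNKi table were PLN and ITGA8. PLN was at 0.06 FPKM in iCAFs and 0.58 FPKM after JNKi, and ITGA8 at 0.13 and 1.31 FPKM. No direction is read from values so low.

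The regulators were taken from a list of SRF, TEAD factors and their partners, with 17 of 19 symbols in the tables. The MRTF genes are listed there as MKL1 and MKL2. With JNKi against iCAFs, 0 of the 15 genes past the filter were 2-fold higher and 0 were 2-fold lower, beside 2.25% and 1.97% of all genes. Their median log2 difference was 0.03. SRF was at 13.6 FPKM in untreated MRC5, 16.4 FPKM in iCAFs and 16.9 FPKM after JNKi. MKL1 was at 10.9, 11.1 and 10.5 FPKM in that order, and MKL2 at 3.43, 3.02 and 3.14 FPKM. MYOCD, which encodes myocardin, was at 0.42 FPKM in untreated MRC5, 7.31 FPKM in iCAFs and 9.92 FPKM after JNKi. MYOCD was therefore 2-fold higher in iCAFs than in MRC5, at a log2 difference of 2.55. Only the RNA of these regulators is given here, and not their protein or its activity. Their part in the values of the contractile genes was not tested in either table.

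In the JUN overexpression table SRF was at 24.3 FPKM in the control, with 18.8 FPKM for JUN WT and 12.9 FPKM for JUN AA. ACTA2, ACTG2, CNN1 and LMOD1 had that order of libraries, and TAGLN, MYL9, TPM1, TPM2 and CALD1 did not. MKL1 was at 10.2, 9.56 and 6.12 FPKM, and MYOCD was below 1 FPKM in the 3 libraries. TEAD3 was 2-fold lower in JUN AA, at 36.2 FPKM in the control and 16.8 FPKM in JUN AA. KLF4, a repressor of smooth muscle genes, was 2-fold higher in JUN WT, at 2.32 FPKM in the control, with 6.01 FPKM for JUN WT and 1.96 FPKM for JUN AA. The median of the list was -0.22 for JUN WT and -0.28 for JUN AA over 12 genes past the filter. KLF4 was at 4.64 FPKM in untreated MRC5, 1.97 FPKM in iCAFs and 1.10 FPKM after JNKi.

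**Figure D4:**
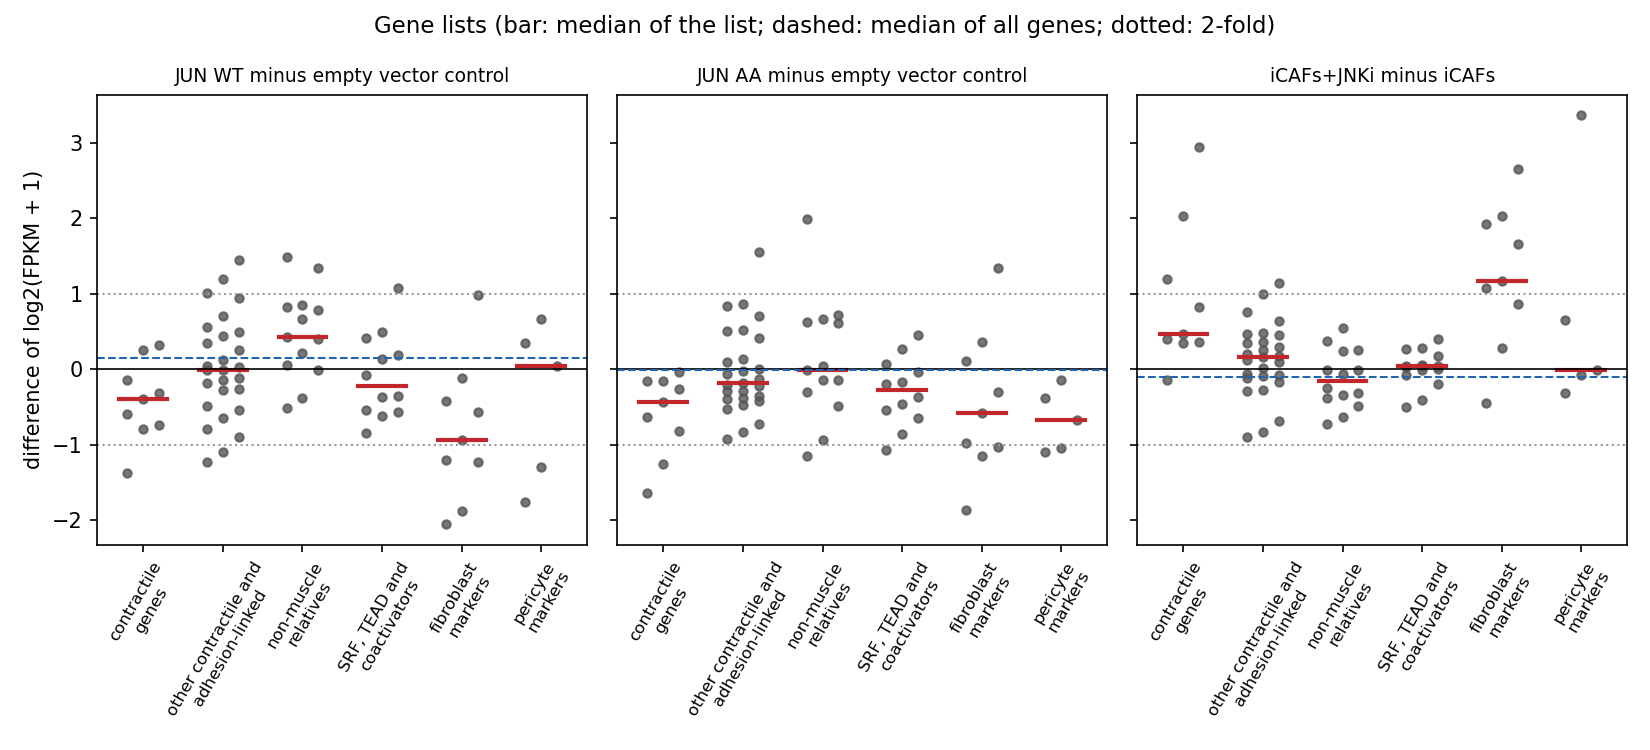
Differences of log2(FPKM + 1) of single genes (points) in the contractile genes without MYH11 and in 5 other gene lists, for genes whose mean reached 1 FPKM (lists with at most 2 such genes are not drawn); bars are the median of each list, dashed lines the median of all genes and dotted lines a 2-fold difference. With JNKi against iCAFs the fibroblast markers have a median of 1.17 and the SRF and TEAD list lies near 0 (0.03).

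Most fibroblast markers differed in the same direction as most of the contractile genes in every comparison but JUN WT against JUN AA. There 4 of the 9 markers were higher and 5 lower, with a median log2 difference of -0.17, while 6 of the 9 contractile genes were higher. The pericyte markers had a common direction only in JUN AA against the control. All 5 past the filter were lower there, 2 of them 2-fold, beside 51.4% and 3.77% of all genes. The median log2 difference of the fibroblast markers was -0.93 in JUN WT, -0.59 in JUN AA, -0.40 in iCAFs against MRC5 and 1.17 with JNKi against iCAFs. With JNKi against iCAFs 6 of the 9 fibroblast markers were 2-fold higher and none was 2-fold lower, beside 2.25% and 1.97% of all genes. Their summed level was 5605 FPKM in untreated MRC5, 4008 FPKM in iCAFs and 6205 FPKM after JNKi. The largest of these differences were those of COL3A1 (2.65), LUM (2.02), DCN (1.93) and PDGFRB (1.65), genes of collagen, small proteoglycans and a growth factor receptor. In JUN WT 4 of the 9 were 2-fold lower, beside 3.39% of all genes. In JUN AA 3 were 2-fold lower and 1 (LUM) was 2-fold higher, beside 3.77% and 5.29% of all genes. PDGFRB was at 60.4 FPKM in the control, with 13.8 FPKM for JUN WT and 15.8 FPKM for JUN AA. The 5 pericyte markers past the filter had medians of 0.04, -0.68, -0.32 and -0.01 in the same order of comparisons, and with JNKi against iCAFs 2 were higher and 3 lower. Against untreated MRC5, 2 of the 5 (RGS5 and NOTCH3) were 2-fold higher with JNKi, beside 3.28% of all genes, and the median was 0.58. Against iCAFs RGS5 alone was 2-fold higher, at 10.5 FPKM in untreated MRC5, 5.81 FPKM in iCAFs and 68.9 FPKM after JNKi. NOTCH3 was at 24.9, 33.6 and 53.5 FPKM in that order, CSPG4 at 32.5, 23.2 and 22.0 FPKM, MCAM at 46.4, 70.2 and 69.8 FPKM, and the pericyte markers KCNJ8 and ABCC9 were below 2 FPKM in every library. The summed pericyte markers were at 117 FPKM in untreated MRC5, 134 FPKM in iCAFs and 215 FPKM after JNKi, so their sum was higher in iCAFs, where most contractile genes were lower, and most of the further difference with JNKi was RGS5. The part of these cell identities in the values of ACTA2, ACTG2 and LMOD1 was not tested, and more cells with the apparatus and more RNA per cell cannot be told apart in bulk libraries.

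The other summed markers each rested on few genes. The endothelial list summed to between 2.80 and 10.7 FPKM in the JNKi table, nearly all of it TEK, which was at 2.52 FPKM in untreated MRC5, 3.77 FPKM in iCAFs and 10.4 FPKM after JNKi. The epithelial list summed to between 19.7 and 56.2 FPKM in the JUN overexpression table, highest in the control, and was nearly all KRT8 and KRT18. The leukocyte list was nearly all CD68, at between 31.1 and 85.7 FPKM in the 6 libraries.

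The gene whose pattern over the 6 libraries was closest to ACTA2 was COL3A1. Likeness was the root mean square distance of log2(FPKM + 1), centred within each table, over 10020 genes past the filter in both tables, and ACTA2 was taken as the reference after its values were seen. The closest were COL3A1 (0.18), RGS5 (0.25), LBH (0.25), HSPA2 (0.25), PODN (0.29) and LMOD1 (0.33), of which LMOD1 is the only other contractile gene of the 10. COL3A1, type III collagen, was at 362 FPKM in the control, with 189 FPKM for JUN WT and 163 FPKM for JUN AA, and at 73.6 FPKM in untreated MRC5, 46.4 FPKM in iCAFs and 296 FPKM after JNKi. LBH, a transcription cofactor, was at 78.9, 26.9 and 19.8 FPKM in the JUN overexpression table and at 65.0, 40.5 and 185 FPKM in the JNKi table. PODN, a small proteoglycan, was at 10.9, 2.92 and 1.20 FPKM and at 7.26, 2.12 and 28.8 FPKM. Each of the 6 genes was highest in the control, and each was highest with JNKi and lowest in iCAFs. That order is no separate result, because the genes were picked by their likeness to ACTA2 over the same libraries. The distance rests on 6 single libraries and carries no test.

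**Figure D5:**
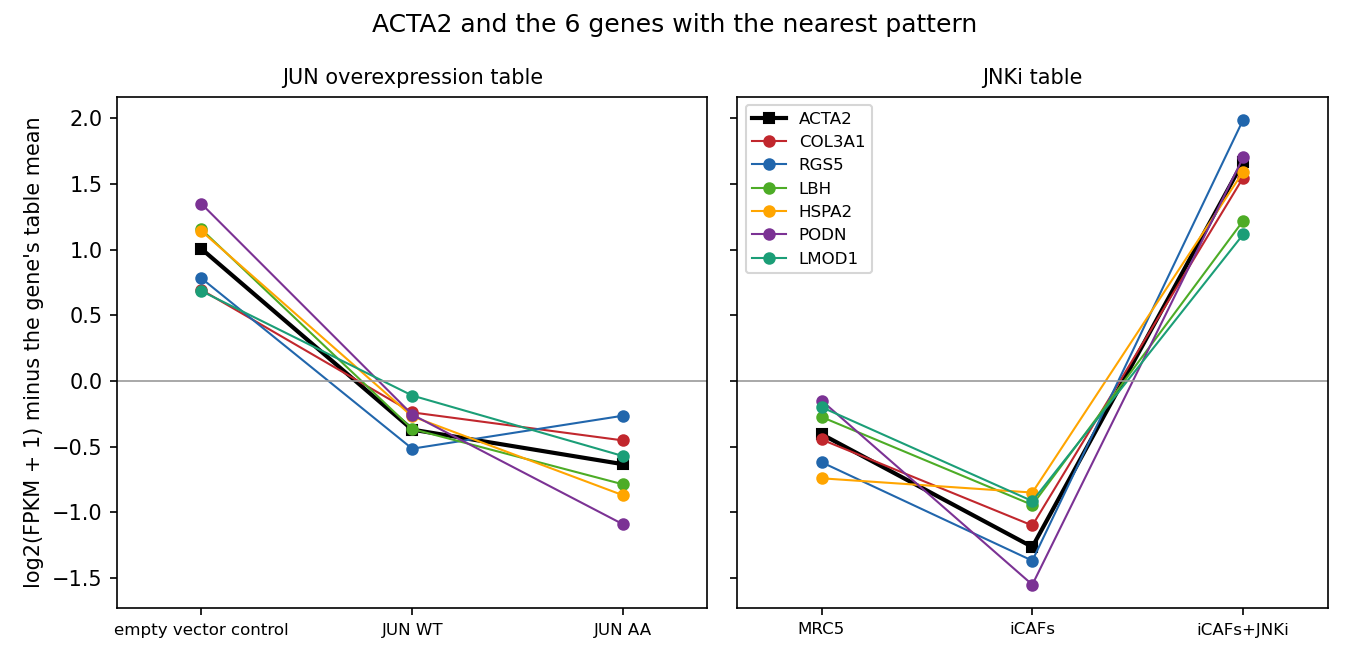
ACTA2 (squares, thick line) and the 6 genes with the smallest root mean square distance from it, as log2(FPKM + 1) minus the mean of the gene in its table, for the JUN overexpression table (left) and the JNKi table (right); lines only link the 3 libraries of a table. In the JNKi experiment every gene shown is lowest in iCAFs and highest in iCAFs+JNKi, an order that their selection by likeness to ACTA2 favours.

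The median profile of all 10 contractile genes was much flatter than ACTA2. Its centred values ran from -0.22 in iCAFs to 0.23 in iCAFs+JNKi and from -0.21 in JUN AA to 0.15 in the control, and ACTA2 lay furthest from it, at a distance of 0.84, followed by LMOD1 at 0.53 and TPM1 at 0.46. TAGLN (0.097), MYL9 (0.14) and CALD1 (0.20) lay close to it, as did MYH11 at 0.095, whose values near 0 leave no room for a difference. The 5 other genes closest to the median profile were FAM214A, SNORD16, EHD3, GRAMD4 and LINC01278, at distances of 0.062 to 0.067. EHD3, a membrane trafficking gene, was at 16.3 FPKM in untreated MRC5, 13.2 FPKM in iCAFs and 18.6 FPKM after JNKi.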

How the data were processed

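The authors mapped the reads of 6 libraries to hg19 with HISAT2 2.1.0 at default parameters, and StringTie 2.1.1 computed the FPKM per gene that they deposited. The annotation, the strand setting and the number of reads are not given in the sources used here, so depth and the precision of single values are unknown and no count model was used. Each table has 25370 rows and 25368 symbols, and repeated symbols kept their most abundant row. Libraries were grouped by their labels. In Python 3.11.15 with numpy 2.4.6 and pandas 2.3.3, log2(FPKM + 1) differences were taken within a table, and counts over all genes used a mean of at least 1 FPKM over its 3 libraries. Positions, exon overlaps and coding sequences came from GRCh37 with GENCODE, the assembly also called hg19. Promoter sequences came from RefSeq on GRCh38.p14. The genes and lists were chosen with earlier results of these data known, so they give no independent support. Named were the 10 genes, JUN, genes sharing their exon bases, from each list the most abundant genes, the SRF coactivators and up to 4 genes past 2-fold, and the 5 nearest patterns. Genes named beyond that, such as DES, KCNMB1, SMTN, MYLK and those nearest to ACTA2, were chosen after their values were seen. The computation was tested on simulated data. Alternatives were FPKM scaled to an equal sum of 1000000 per library, a pseudocount of 0.1, centring, minimum means of 1 and 5 FPKM and, added after seeing the data, removal of length and GC trends in 20 bins. A value was taken as moved beyond 0.25 on the log2 scale or 1.5 times for counts. Figures used matplotlib 3.10.9.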

Additional observations from a re-analysis of the deposited data

How the results depend on the processing

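Of the counts and medians of the 10 genes over the 6 comparisons, 104 of those recomputed under an alternative stayed within the limits and 4 did not. With a pseudocount of 0.1, 2 genes in place of 1 were 2-fold lower in JUN WT against the control, the added one being MYH11, which is near 0. After giving libraries an equal FPKM sum, the median log2 difference in JUN AA against the control was -0.66 in place of -0.35, the median in JUN WT against JUN AA was 0.39 in place of 0.09, and 1 gene (TPM1) was 2-fold higher in JUN WT than in JUN AA in place of 0. The JUN AA library has the largest FPKM sum, so rescaling raises its values less than those of the control and JUN WT. Within the limits were also 3 genes in place of 2 that were 2-fold lower in JUN AA with equal sums. So was the median in JUN WT against JUN AA with centring, -0.09 in place of 0.09. The minimum means of 1 and 5 FPKM both left out only MYH11 and gave the same values as each other. Single-gene differences stayed within 0.25 in 202 cases and moved further in 38, and none of those past 2-fold changed sign. ACTA2 and LMOD1 were past 2-fold in JUN AA against the control and with JNKi under each alternative tried. The length and GC trends could be removed for all 10 genes, from values found for 91.1% of filtered genes among the JUN libraries and 90.4% in the JNKi table. No paired analysis was possible because each condition has 1 library. Depth is unknown, so values under 1 FPKM, MYH11 among them, carry no direction, and MYH11 enters only the medians and 2-fold counts of the 10.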
